A study of Drosophila melanogaster with 6 samples.

Results

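Voltage-gated and leak ion channels set the resting potential of a neuron and carry its action potentials. Sodium channels such as the one encoded by para drive the upstroke, and small transmembrane subunits of the TipE family modify them in insects. Potassium channels of the Shaker, EAG, calcium-activated, inward-rectifier and tandem-pore leak types repolarise the cell or hold it at rest, and calcium, chloride, HCN and cyclic nucleotide-gated channels shape release, volume and excitability. In the fly wing such genes are expected in the sensory neurons of the margin and veins, although several chloride and inward-rectifier channels also serve epithelia.

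The genes described here are 33 genes of these families, listed by symbol, without the sensory TRP and ppk channels. Of the 33, 32 were matched by FlyBase identifier among the 17476 genes of the count tables, and 30 had enough counts to be tested. The channel gene para could not be matched by its current identifier and was not analysed here. Elk, an EAG-type potassium channel gene, and CngA, a cyclic nucleotide-gated channel subunit gene, were below the filter on low counts. Values are given in the order of the replicate numbers, control before Poxn. Elk had 3, 0 and 4 counts against 15, 7 and 14. CngA had 1, 5 and 4 counts against 5, 16 and 10.

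RNA-seq was performed on hand-dissected wings of flies aged 3 days after eclosion, with 3 libraries from w1118 Canton-S flies (control) and 3 from flies carrying the Poxn 70 allele, whose wings lack chemosensory sensilla. The labels give no sex for either genotype and put 8000 wings from 4000 flies into each library. In the study the mutant line was backcrossed to the control strain, and its chemosensory sensilla may be changed into mechanosensory ones, so a difference between genotypes covers lost and altered sensilla together. In bulk wings, fewer cells of a type and less RNA per cell cannot be told apart.

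Counts on genes ran from 10074860 to 14269486 in the control libraries and from 14021115 to 16182811 in the Poxn libraries. The control libraries stood apart from each other. Transcripts under 600 nt took between 16.6% and 30.6% of their counts, against between 5.68% and 7.03% in the Poxn libraries, and edgeR's TMM scaling factors were 0.246, 0.522 and 1.28 for control replicates 1 to 3 and between 1.76 and 1.86 for the Poxn libraries. Levels below are CPM, counts per 1000000 of the TMM-scaled library size, unless they are said to be scaled by total counts. The 2 scalings shift the median log2 fold change (control over Poxn) of all 8973 tested genes from −0.01 to −1.39. The Poxn transcript had 0, 6 and 3 counts in the control-labelled libraries and 92, 86 and 85 in the Poxn-labelled ones, so the mutated gene does not check the labels in the usual way, and every direction given here follows the labels. The 5 marker genes listed for the chemosensory neurons of the wing (VGlut, ppk23, ppk25, ppk29 and toy), chosen with their behaviour in these libraries known, summed to between 174 and 228 CPM in the control-labelled libraries and between 0.399 and 0.901 CPM in the Poxn-labelled ones.

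The comparison asks which channel transcripts were enriched in wings with chemosensory sensilla. At the criterion of the study, more than 4-fold with an adjusted p under 0.01, edgeR called 0 of the 30 tested channel genes in either direction, where the share of all tested genes called was 0.602% for higher and 0.0557% for lower in the control-labelled libraries. At an unadjusted p under 0.05, 6 channel genes were higher and 4 lower in these libraries (17.8% and 14.1% of all tested genes). DESeq2 called 2 higher at the criterion (unc79 and Cngl, where it called 7.5% of all tested genes) and 1 lower (Teh3, 0.736% of all tested genes). At an adjusted p under 0.05 without a fold threshold, edgeR called SK higher in the control-labelled libraries (4.95% of all tested genes were called in this direction), and Teh3 and Irk1 higher in the Poxn-labelled ones (2.69%). DESeq2 called 5 and 4 channel genes at this threshold (16.7% and 8.01% of all tested genes). The 30 genes had a median log2 fold change of 0.21, and 17 of the 30 had a positive one. With total counts their median was −1.25, against −1.39 over all tested genes.

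**Figure D1:**
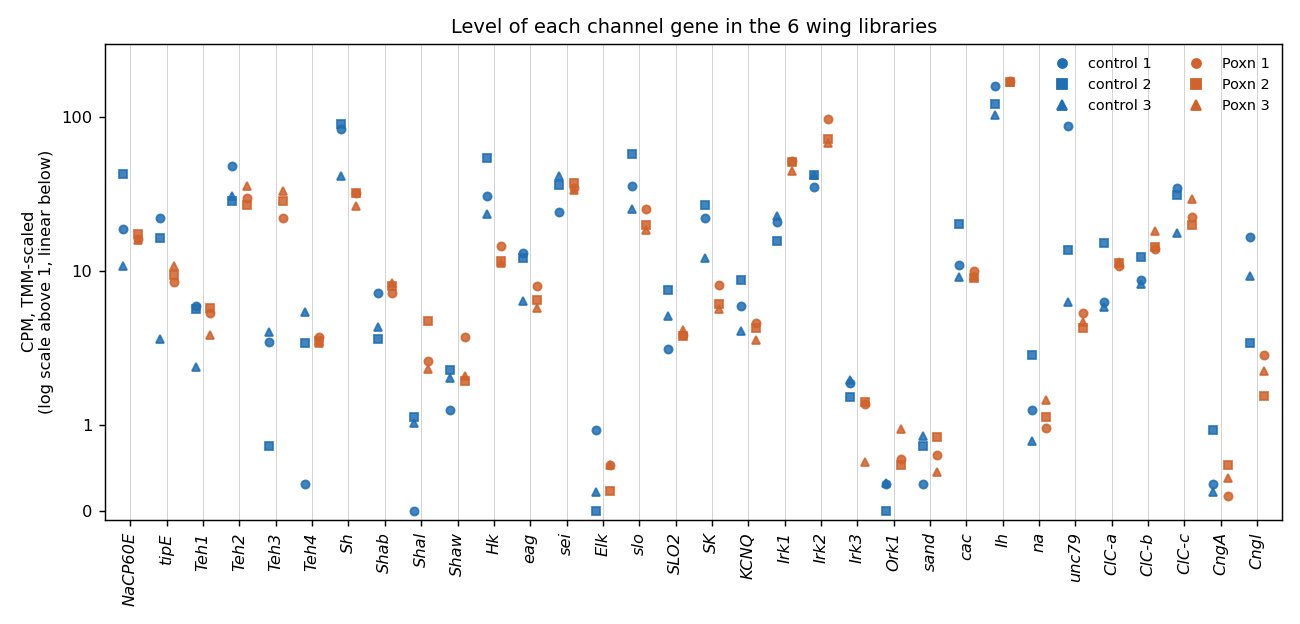
Level of the 32 matched channel genes in each library, in CPM with TMM scaling, on an axis that is logarithmic above 1 CPM and linear below. Blue points are the 3 control libraries, orange points the 3 Poxn libraries, and the marker gives the replicate. Teh3, Shal, Irk1 and Irk2 lie higher in all 3 orange points, Sh, Hk and SK in all 3 blue points.

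The largest difference among the channel genes was in Teh3, one of the auxiliary subunit genes of the TipE family. Teh3 (FBgn0040697; 3L, 4182645 to 4184663, reverse strand, in the release 6 assembly) was counted 11, 4 and 74 times against 614, 857 and 872. The levels were 3.46, 0.761 and 4.06 CPM against 22.1, 28.5 and 33.4 CPM. All 3 control-labelled libraries therefore lay below all 3 Poxn-labelled ones, as in 22.5% of all tested genes. They did so with total counts too, as in 57.8% of all tested genes. The means were 2.76 ± 1.76 CPM and 28.0 ± 5.66 CPM (SD, n = 3 each), so Teh3 was 9.88-fold higher in the Poxn-labelled libraries (log2 fold change −3.30, standard error 0.55, adjusted p = 0.0222, edgeR). Its adjusted p stayed under 0.05 in all alternatives that changed the scaling, the test, the filter, the pairing or the length correction. With control replicate 3 as the only control library, the log2 fold change of Teh3 was −2.84. Leaving out control replicate 1 or any of the 3 Poxn libraries took the adjusted p of Teh3 above 0.05 (from 0.0512 to 0.111, edgeR), with log2 fold changes between −3.80 and −2.88 over the 6 libraries left out in turn. The lowest adjusted p of Teh3 over all alternatives was 2.78e-06 (DESeq2 with its prior), and in edgeR it was 0.00133 (total counts). Without 1 Poxn library, 39 to 50 of all tested genes were called higher in control and 3 to 4 higher in Poxn. With all 6 libraries these were 444 and 241.

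Teh3 lies inside the span of Teh2 on the same strand, in a group of 4 TipE family genes on chromosome arm 3L, and 229 nt of its exons (14.4%) are shared with Teh2, so reads there are uncertain. Its neighbours did not pass the test. For Teh2 (3L, 4178980 to 4188023) there were 153, 151 and 564 counts against 833, 814 and 937, which is 48.1, 28.7 and 30.9 CPM against 30.0, 27.1 and 35.9 CPM, and its libraries overlapped (log2 fold change 0.21, standard error 0.34, adjusted p = 0.707, edgeR). Teh4, at 4174859 to 4178270 on the same arm, had 1, 18 and 99 counts against 104, 107 and 90, and the control-labelled libraries, from 0.314 to 5.43 CPM, spread to both sides of the Poxn-labelled ones (between 3.45 and 3.75 CPM). The founding member tipE (3L, 4188499 to 4193788), known for a temperature-sensitive paralysis when mutated, had 22.3, 16.6 and 3.62 CPM against 8.58, 9.45 and 10.8 CPM and did not pass (log2 fold change 0.53, adjusted p = 0.567, edgeR). In tipE, 777 nt of exon (19%) are shared with CG18675. Teh1, which lies alone on 3R, had between 2.41 and 5.97 CPM in the control-labelled libraries and between 3.87 and 5.79 CPM in the Poxn-labelled ones.

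Because the members of the family lie in the same libraries, their ratios need no library scaling. They do not remove effects of transcript length, which is 1586 nt for Teh3 and 2679 nt for Teh2. Each Teh2 count went with 0.0719, 0.0265 and 0.131 Teh3 counts in the control-labelled libraries and with 0.737, 1.05 and 0.931 in the Poxn-labelled ones, and the groups did not overlap. The ratio of Teh4 to Teh2 overlapped, from 0.00654 in control replicate 1 to 0.176 in control replicate 3, against between 0.0961 and 0.131. Both pairs were chosen after their values were seen. NaCP60E, which encodes a channel related to para, had 18.9, 42.8 and 10.9 CPM against 16.3, 17.6 and 16.0 CPM. Its libraries overlapped, and control replicate 2 was the highest of the 6.

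Among the potassium channels, the inward rectifier gene Irk1 was higher in the Poxn-labelled libraries, and the libraries of Irk2 separated in the same direction without passing the test. These channels pass potassium near the resting potential and are known from fly renal tubules as well as from neurons and glia. Irk1 (FBgn0265042; 3R, 23168317 to 23185642, forward strand) had 66, 83 and 420 counts against 1441, 1555 and 1171. At 20.8, 15.8 and 23.0 CPM, the control-labelled libraries were all below the Poxn-labelled ones, with 51.9, 51.7 and 44.9 CPM. The difference was 2.49-fold (log2 fold change −1.32, standard error 0.31, adjusted p = 0.0424, edgeR). With offsets for transcript length the log2 fold change of Irk1 shrank to −0.65 (adjusted p = 0.275, the highest in a range from 0.00185 over its alternatives, edgeR and DESeq2). The call on Irk1 was also lost with RLE factors (0.0525), with the replicate number as a block (0.0887) and without control replicate 1 or any of the 3 Poxn libraries (from 0.0607 to 0.209, edgeR).

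Irk2 (3R, 23513617 to 23519445, reverse strand) had 35.2, 42.6 and 42.1 CPM against 98.3, 72.8 and 68.3 CPM, again without overlap, but it did not pass the test (log2 fold change −0.99, standard error 0.32, adjusted p = 0.0806, edgeR). With length offsets it was −0.38. DESeq2 called Irk2 at an adjusted p of 0.0248 (log2 fold change −0.87). By the group means, Irk2 was the most abundant of the tested channel genes per length in both genotypes, at 17.8 ± 1.84 CPM per kilobase of longest transcript in the control-labelled libraries and 35.5 ± 7.20 in the Poxn-labelled ones (SD, n = 3 each). The third gene of the family, Irk3, differed in sign, with 1.89, 1.52 and 1.97 CPM against 1.37, 1.43 and 0.575 CPM (log2 fold change 0.68, adjusted p = 0.383, edgeR). Each Irk3 count went with between 10.4 and 11.7 Irk1 counts in the control-labelled libraries and with 37.9, 36.2 and 78.1 in the Poxn-labelled ones, while the ratio of Irk1 to Irk2 overlapped (between 0.371 and 0.589 against between 0.528 and 0.711). These pairs too were chosen after their values were seen. Irk1 and Irk3 differ in length, with longest transcripts of 3202 and 1820 nt.

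**Figure D2:**
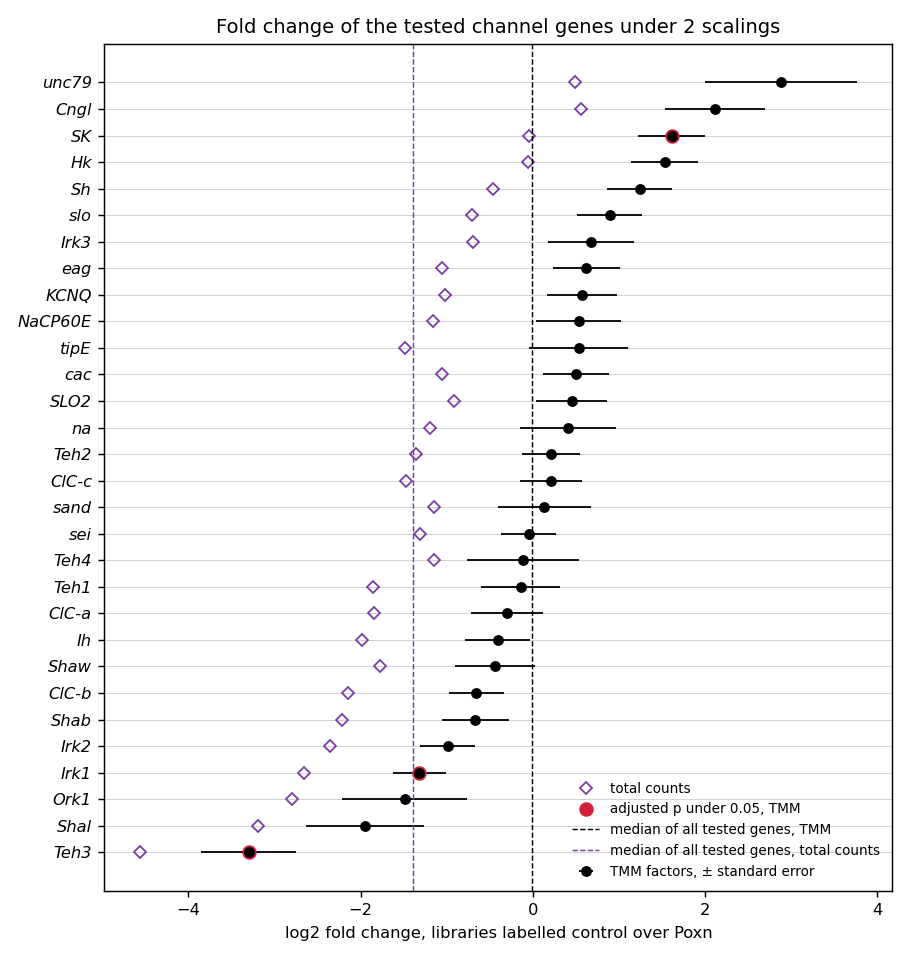
Log2 fold change of the 30 tested channel genes, libraries labelled control over the Poxn-labelled ones. Filled points use TMM factors with bars of 1 standard error, open diamonds use total counts, red marks an adjusted p under 0.05 with TMM, and dashed lines give the median of all tested genes (−0.01 and −1.39). Teh3 is at −3.30 and −4.56 under the 2 scalings, whereas SK is at 1.61 and −0.04.

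SK, the small-conductance calcium-activated potassium channel gene, was the member that passed the test in the opposite direction. SK (FBgn0029761; X, 5340236 to 5405138, forward strand) had 71, 143 and 225 counts against 227, 186 and 149. With TMM factors these are 22.3, 27.2 and 12.3 CPM against 8.18, 6.19 and 5.71 CPM, without overlap, a 3.06-fold difference (log2 fold change 1.61, standard error 0.39, adjusted p = 0.0429, edgeR). With total counts the libraries overlapped and the log2 fold change of SK was −0.04 (adjusted p = 0.975, the highest in a range from 0.00117 over its alternatives, edgeR and DESeq2). The call on SK was also lost with limma voom (0.0618), and in edgeR with no filter (0.0547), length offsets (0.0594) or the replicate number as a block (0.0561), where the log2 fold change was between 1.32 and 1.56, and without control replicate 1 or any of the 3 Poxn libraries (from 0.0726 to 0.217). For each count of slo, the gene of the large-conductance calcium-activated channel, there were 0.623, 0.469 and 0.487 SK counts in the control-labelled libraries and 0.321, 0.308 and 0.308 in the Poxn-labelled ones. The pair was chosen after its values were seen. The libraries of slo itself overlapped, with 35.8, 58.1 and 25.3 CPM against 25.5, 20.1 and 18.5 CPM. SLO2, a related channel gene, had between 3.14 and 7.61 CPM against between 3.79 and 4.14 CPM.

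Sh, the Shaker channel gene that gave the A-type current its molecular identity, and Hk, which encodes its cytoplasmic beta subunit, were both higher in the 3 control-labelled libraries with TMM factors, without reaching an adjusted p under 0.05. Sh (X, 17924307 to 18063247) had 83.6, 90.8 and 41.6 CPM against 32.3, 32.2 and 26.8 CPM (log2 fold change 1.24, standard error 0.38, adjusted p = 0.0706, edgeR). Hk (X, 10233347 to 10263485) had 30.8, 54.4 and 23.6 CPM against 14.7, 11.7 and 11.3 CPM (log2 fold change 1.53, standard error 0.39, adjusted p = 0.0514, edgeR). With total counts both overlapped, at −0.46 and −0.06. The stoichiometry of their transcripts did not separate the genotypes, with 2.71, 1.67 and 1.77 Sh counts per Hk count against 2.19, 2.74 and 2.38. Both passed without control replicate 3 (adjusted p = 0.0195 for Sh and 0.0214 for Hk, edgeR) and with DESeq2 (0.0101 and 0.00188), within ranges over their alternatives from 0.0101 to 0.679 and from 0.00187 to 0.965.

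The other voltage-gated potassium channel genes did not pass the test in edgeR. Shal, the gene of the somatodendritic A-type channel, had 0, 6 and 19 counts against 73, 144 and 61 (log2 fold change −1.95, standard error 0.68, adjusted p = 0.0943, edgeR). Its libraries did not overlap with TMM factors or with total counts, as in 22.5% and 57.8% of all tested genes in this direction. The count of 0 in control replicate 1 allows up to 3 counts, or 0.943 CPM. DESeq2 called Shal at an adjusted p of 0.0261 (log2 fold change −1.86). Shab, the main delayed rectifier gene, had 7.23, 3.62 and 4.33 CPM against 7.21, 8.05 and 8.36 CPM, and control replicate 1 lay within the range set by the Poxn libraries. Shaw had between 1.26 and 2.28 CPM against between 1.93 and 3.75 CPM. KCNQ, the gene of the M-type channel, had between 4.11 and 8.76 CPM against between 3.60 and 4.61 CPM, and 27.4% of its exon bases are shared with CG18011 or an antisense gene.

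Of the EAG family, eag had 13.2, 12.2 and 6.42 CPM against 8.04, 6.52 and 5.79 CPM and overlapped. The seizure gene sei, an ERG-type channel, had 24.2, 36.4 and 41.7 CPM against 34.8, 37.5 and 33.7 CPM (log2 fold change −0.05, standard error 0.32, adjusted p = 0.934, edgeR), and its libraries overlapped. In sei, 478 nt of exon (14.6%) are shared with gammaSnap1 and ppk29 on the other strand. Since ppk29 had 78, 120 and 620 counts against 7, 7 and 11, and the strand setting of the counts is not given, reads of ppk29 and of sei cannot be told apart where they overlap, and their part in the value of sei was not tested. The 2 tandem-pore leak channel genes of the list were rare. Ork1 had 1, 0 and 6 counts against 17, 16 and 25, and sand, known for its role in sleep-control neurons of the fly brain, had 1, 4 and 16 against 18, 26 and 12. The count of 0 for Ork1 in control replicate 2 allows up to 3 counts, or 0.571 CPM. Neither gene passed the test (adjusted p = 0.199 and 0.887, edgeR).

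**Figure D3:**
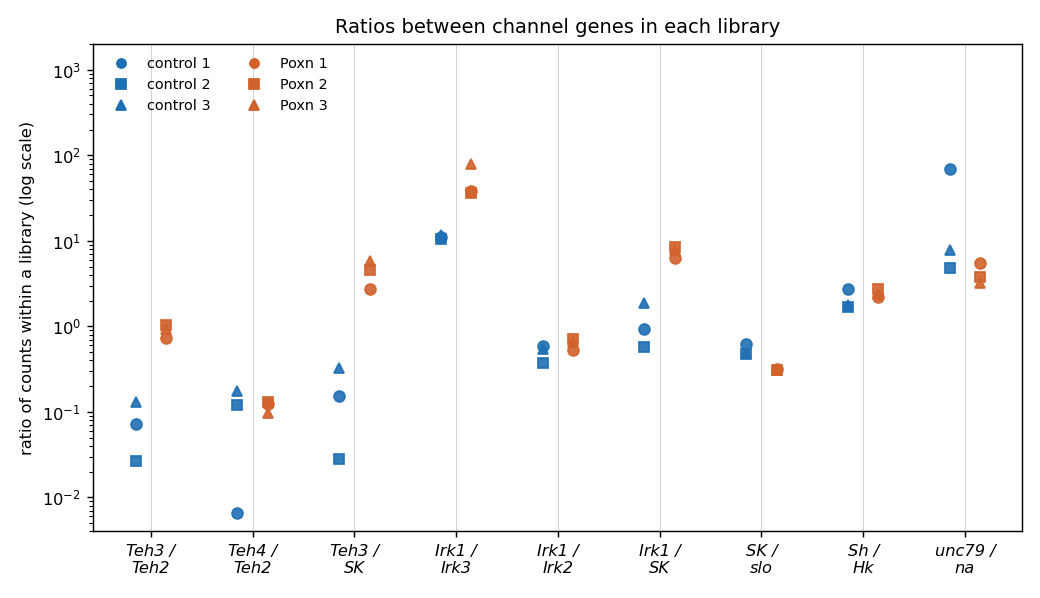
Ratio of the counts of 2 channel genes within each library, on a log axis, with control libraries in blue, Poxn libraries in orange and the marker for the replicate. The ratio of Teh3 to Teh2 is between 0.0265 and 0.131 in blue and between 0.737 and 1.05 in orange. The ratio of Irk1 to Irk3 separates too, whereas Sh to Hk and Irk1 to Irk2 overlap, and unc79 to na has 1 high point, at 69.8 in control replicate 1.

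Of the sodium leak complex, unc79 depended on 1 library. Its product is an accessory protein of the NALCN-type channel encoded by na (narrow abdomen), which carries a resting sodium current in clock neurons. For unc79 (FBgn0038693; 3R, 19230764 to 19246130) there were 279, 72 and 116 counts against 149, 129 and 123. At 87.7, 13.7 and 6.36 CPM, the control-labelled libraries lay above the Poxn-labelled ones (5.37, 4.29 and 4.71 CPM). Control replicate 1 stood far above the other control libraries. The gene did not pass (log2 fold change 2.88, standard error 0.88, adjusted p = 0.0696, edgeR). Leaving out control replicate 1 brought unc79 to a log2 fold change of 1.04 (adjusted p = 0.146, edgeR). Over its alternatives the adjusted p of unc79 ran from 0.00474 (DESeq2) to 0.696 (edgeR with total counts). For na the libraries overlapped, with 4, 15 and 15 counts against 27, 34 and 38. The ratio of unc79 to na counts was 69.8 in control replicate 1 and at most 7.73 in the other control libraries, against between 3.24 and 5.52. Their partner unc80 had between 0 and 9 counts in any library and was not tested.

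Ih, the only HCN channel gene of the fly, came second per length in both genotypes by the group means. Its levels were 159, 123 and 104 CPM against 172, 171 and 169 CPM, and the Poxn-labelled libraries agreed closely with each other (log2 fold change −0.41, standard error 0.38, adjusted p = 0.487, edgeR). The groups did not overlap with TMM factors or total counts (22.5% and 57.8% of all tested genes in this direction) but did with RLE factors. Cngl, which encodes a cyclic nucleotide-gated channel-like subunit, had 53, 18 and 171 counts against 79, 47 and 59. At 16.7, 3.43 and 9.38 CPM, the control-labelled libraries lay above the Poxn-labelled ones (2.85, 1.56 and 2.26 CPM), but Cngl did not pass (log2 fold change 2.12, standard error 0.58, adjusted p = 0.0562, edgeR). With total counts it was 0.56 and the libraries overlapped. The presynaptic calcium channel gene cac had between 9.16 and 20.2 CPM against between 9.01 and 10.1 CPM (log2 fold change 0.50, adjusted p = 0.393, edgeR), and its libraries overlapped.

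The chloride channel genes ClC-a, ClC-b and ClC-c did not pass the test. ClC-b, whose vertebrate relatives act in endosomes and lysosomes, had 8.80, 12.4 and 8.28 CPM against 13.9, 14.5 and 18.2 CPM, without overlap (log2 fold change −0.66, standard error 0.32, adjusted p = 0.197, edgeR). ClC-a, a channel of the plasma membrane, had 6.29, 15.2 and 5.92 CPM against 10.8, 11.4 and 11.5 CPM, and ClC-c between 17.8 and 34.6 CPM against between 20.0 and 29.5 CPM, and both overlapped.

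Across the 30 genes, the libraries did not overlap with TMM factors in 6 that were higher in control and 7 that were higher in Poxn, where 17.9% and 22.5% of all tested genes did so. The 6 were Sh, Hk, SK, Irk3, unc79 and Cngl, and the 7 were Teh3, Shal, Irk1, Irk2, Ork1, Ih and ClC-b. With total counts 0 genes were higher in the control-labelled libraries and 22 in the Poxn-labelled ones, among all tested genes 2.72% and 57.8%. With TMM factors the channel genes thus separated about as often as all tested genes. Exact permutation of 3 libraries against 3 has 0.1 as its smallest p for any single gene.

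The channel genes are long, with a median longest transcript of 4492 nt against 2053 nt over all tested genes. In CPM per kilobase, Teh3 stood 17th of 30 in the control-labelled libraries (1.74 ± 1.11) and 3rd in the Poxn-labelled ones (17.7 ± 3.57, SD, n = 3 each). SK went from 13th (2.34 ± 0.859) to 21st (0.758 ± 0.148). By the group means, in both genotypes Irk2 and Ih came first and second, Teh2 and sei were within the first 6, and Ork1 and na were among the last 3.

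To set the channels against neuronal markers, each count was divided by the summed counts of 12 neuron markers in the same library (elav, nSyb, brp, Syt1, Syn, cpx, Snap25, onecut, fne, futsch, Rim and unc-13). These summed to between 339 and 690 CPM in the control-labelled libraries and between 382 and 408 CPM in the Poxn-labelled ones. The markers took unlike parts of this sum in the 2 genotypes. Of 2193, 1782 and 6582 summed counts in the control-labelled libraries, futsch had 968, 471 and 1650. Of 10594, 12281 and 10242 in the Poxn-labelled ones, it had 1445, 1045 and 1218. The counts of nSyb were 85, 127 and 744 against 1757, 2858 and 2112. For cpx they were 337, 98 and 1360 against 2700, 3234 and 2668, so its part also varied among the control-labelled libraries. The part of these markers in the channel values on this scale was not tested. Of the 12 markers, fne was higher in the control-labelled libraries at an adjusted p under 0.05 and 0 were higher in the Poxn-labelled ones (edgeR), with 4 and 1 at an unadjusted p under 0.05 and also 4 and 1 with DESeq2 at an adjusted one. Of all tested genes these calls took 4.95% and 2.69%, 17.8% and 14.1%, and 16.7% and 8.01%. On this scale, Sh, Hk, SK, unc79 and Cngl were higher in all 3 control-labelled libraries, and Teh3, Shab, Shal, Irk1, Irk2, Ork1 and Ih in all 3 Poxn-labelled ones. Of all tested genes, 15.3% and 19.8% separated in this way. Teh3 was at −7.58, −8.63 and −6.47 on the log2 scale against −4.11, −3.84 and −3.55, a difference of −3.72 between the means. SK was at −4.94, −3.63 and −4.87 against −5.54, −6.04 and −6.10, a difference of 1.41. Shab, which overlapped in CPM, was at −6.54, −6.51 and −6.37 against −5.72, −5.66 and −5.55.

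**Figure D4:**
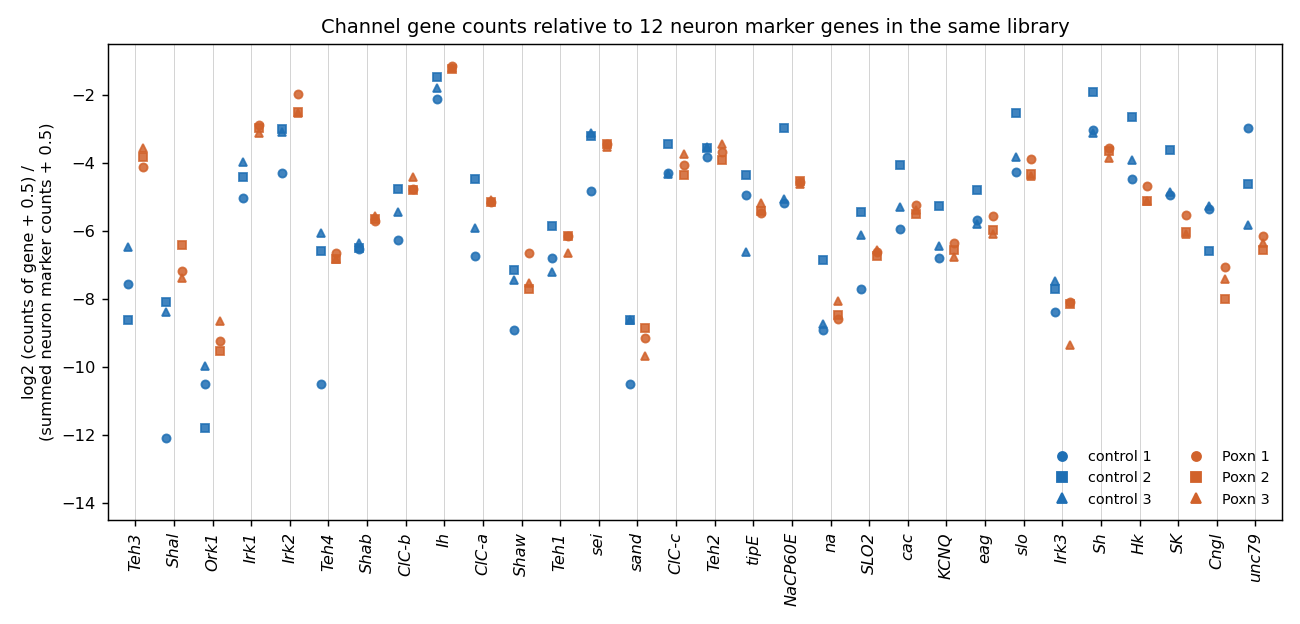
Log2 of each tested channel gene's counts over the summed counts of 12 neuron markers in the same library, with 0.5 added to both, ordered from the most negative to the most positive difference of the means (control minus Poxn). Blue points are control libraries, orange points Poxn libraries, and the marker gives the replicate. Teh3 at the left is lower in all blue points (−8.63 to −6.47) than in the orange ones (−4.11 to −3.55), and SK, Cngl and unc79 at the right are higher in blue.

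Markers of other cells were read beside these values. Of 5 tested mechanosensory markers, ppk and ppk26, 2 channel genes of multidendritic nociceptive neurons, were higher in the Poxn-labelled libraries at an adjusted p under 0.05 (edgeR), in the same direction as Teh3 and Irk1. The 6 listed markers (nompC, nan, iav, Piezo, ppk and ppk26) summed to between 15.7 and 23.8 CPM in the control-labelled libraries and between 82.3 and 117 CPM in the Poxn-labelled ones. Most of the Poxn sum came from ppk (18.9, 25.8 and 24.7 CPM) and ppk26 (47.9, 78.9 and 70.9 CPM). The other markers did not pass: iav separated in the same direction (adjusted p = 0.102, edgeR), whereas nompC overlapped, with a log2 fold change of −0.38, and so did Piezo, with 0.16. The part of these cells in the channel values was not tested. Of 5 tested glial markers 0 passed in edgeR at an adjusted or an unadjusted p under 0.05, with summed levels of all 6 markers between 921 and 4847 CPM against between 1002 and 1285 CPM. Most of this sum was Gs2, with 4775, 1631 and 877 CPM against 1079, 907 and 1182 CPM. The glial nuclear marker repo lay in the direction of Irk1 and Irk2 without overlap, with 6.60, 8.19 and 7.62 CPM against 11.4, 11.2 and 9.89 CPM (log2 fold change −0.53, adjusted p = 0.275, edgeR). For moody and Eaat1 the log2 fold changes were −0.91 and −0.74, and their libraries overlapped. Gs2 and wrapper had the other sign, at 1.20 and 0.42, and overlapped too. With length offsets repo and Eaat1 were at 0.11 and 0.03, and moody at −0.53. Of 7 tested muscle markers 0 passed likewise, and DESeq2 called 0 of either list, with sums of all 8 between 182 and 268 CPM against between 159 and 367 CPM. The 6 hemocyte markers summed to between 20.1 and 55.6 CPM against between 11.6 and 19.8 CPM, and the 3 matched tracheal markers to between 7.99 and 802 CPM against between 484 and 547 CPM, with 0 of the tested ones past an adjusted p under 0.05 in edgeR and 1 hemocyte marker (Pxn) past an unadjusted one and in DESeq2. Of all tested genes, 4.95% were higher and 2.69% lower in control at the adjusted threshold in edgeR. At the unadjusted one these shares were 17.8% and 14.1%, and with DESeq2 16.7% and 8.01%. The part of these cells in the channel values was not tested either. No marker of these lists was at 0 in all libraries of a genotype.

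Of 34 other genes for channels, pumps and their partners, 31 were matched and 24 tested. In edgeR 0 were higher in the control-labelled libraries at an adjusted p under 0.05, where 4.95% of all tested genes were, and 1 (Ncc69) was higher in the Poxn-labelled ones, where 2.69% were. At an unadjusted p under 0.05, 1 was higher and 4 were lower in the control-labelled libraries (17.8% and 14.1% of all tested genes). Ncc69, a sodium-potassium-chloride cotransporter gene, had 48, 114 and 615 counts against 1817, 2283 and 1754 (log2 fold change −1.55, adjusted p = 0.0438, edgeR). The anoctamin gene subdued and the bestrophin gene Best2 did not overlap between the genotypes in the same direction but did not pass (adjusted p = 0.0640 and 0.0703, edgeR). CngB, a partner subunit for CngA, had 21, 31 and 42 counts against 23, 45 and 30 (log2 fold change 2.04, adjusted p = 0.0522, edgeR). With total counts the log2 fold change of CngB was 0.26. DESeq2 called 1 gene (CngB) higher and 3 (Ncc69, subdued and Best2) lower in the control-labelled libraries at an adjusted p under 0.05, where it called 16.7% and 8.01% of all tested genes. These 24 genes had a median log2 fold change of −0.14, and of −1.69 with total counts. Below the filter, Task6, another tandem-pore leak channel gene, had 17, 6 and 32 counts against 7, 2 and 5. Its control-labelled libraries were all higher with TMM, RLE and total counts (17.9%, 20.1% and 2.72% of all tested genes). Shawl, with 4, 2 and 5 counts against 0, 3 and 1, separated likewise. Neither of these genes was tested.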

How the data were processed

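RNA-seq was performed on wings of 2 genotypes with 3 libraries each. The authors deposited raw counts per gene for each library, made from trimmed reads (Trim Galore 0.4.0) and STAR 2.4.2a alignments to FlyBase release r6.09. HTSeq is in the submitters' processing notes; its strand setting is not given in the sources used here. Lines that name no gene were left out of library sizes: those without a feature took 47.9% to 58.6% of a library. The authors' DESeq2 table, with their fold changes and p-values and 6 per-library columns, was not used.

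The counts were tested with edgeR 4.0.16 in R 4.3.3 (quasi-likelihood test after filterByExpr at a minimum count of 10, with TMM factors and Benjamini-Hochberg adjustment over all tested genes). Standard errors are the absolute log2 fold change over the root of the F statistic. Alternatives were RLE factors, total counts, DESeq2 1.42.0 without and with its prior, limma voom 3.58.1 with quality weights, edgeR's robust fit, other filters, a prior count of 2, length offsets, leaving out the 50 most abundant genes, a block for the replicate number, and leaving out each library. Keeping control replicate 3 as the only control library was added after the data were seen. Its p-values hold no spread between control libraries, so its calls are not comparable with those of the other fits. The fits were tested on simulated counts. The Ensembl annotation of the release 6 assembly gave positions and lengths, with 17229 of 17476 genes matched. All members were to be named, with other listed genes where a call or range needed them. The members and lists were chosen with earlier results of these data known. The labels call the replicates of a genotype independent collections of wings. Limits for counts of 0 cover counting error only.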

Additional observations from a re-analysis of the deposited data

How the results depend on the processing

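With TMM factors, the 3 counts that a 0 still allows are 0.943, 0.571 and 0.165 CPM in control replicates 1 to 3 and at most 0.115 CPM in a Poxn library; these limits follow the TMM factors more than the counts on genes, which were 12938209 in control replicate 1 and 14021115 in Poxn replicate 3. Of 570 member values under 19 alternatives, 477 kept their sign and their side of an adjusted p of 0.05, 32 passed it anew, 19 lost it and 42 changed sign, and 12 genes (Teh3, Shab, Shal, Shaw, Irk1, Irk2, Ork1, Ih, unc79, ClC-a, ClC-b and Cngl) kept 1 sign throughout. The 19 include the fit with control replicate 3 as the only control library, which gave 10 of the 42 sign changes and whose passes are not comparable. Total counts moved the median of all tested genes to −1.39, so a negative value could hardly change sign there, whereas a small positive one did. ClC-a reached −0.01 without control replicate 3, and ClC-b −0.01 with length offsets. The causes of these changes were not tested.

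At the criterion, the 0 channel genes higher in the libraries labelled control became 2 with DESeq2, 2 with its prior and 1 (Cngl) with control replicate 3 as the only control library. The 0 higher in those labelled Poxn became 1 (Teh3) with total counts, DESeq2 with or without its prior, no filter, the replicate block and control replicate 3 alone. On leaving out single libraries these counts ranged from 0 to 0 and from 0 to 1. At an adjusted p under 0.05, the 1 gene higher in the libraries labelled control became 2 with RLE factors, 5 with DESeq2 with or without its prior, 3 with control replicate 3 alone, and 0 with total counts, no filter, length offsets or the replicate block, and ranged from 0 to 4 on leaving out single libraries. The 2 higher in those labelled Poxn became 1 with RLE factors, length offsets or the block, 4 with DESeq2 with or without its prior, and 10 with control replicate 3 alone, and ranged from 0 to 5. No channel gene passed without control replicate 1 or any 1 of the Poxn libraries. Few genes of any kind did: 172 and 59 of 9244 tested genes without control replicate 1. Without 1 Poxn library, from 39 to 50 and from 3 to 4 of all tested genes passed. Genes with separated libraries were 6 and 7 with TMM factors and 0 and 22 with total counts. With limma voom the 1 gene higher in the libraries labelled control was Cngl and not SK. Over all tested genes, 444 and 241 calls at an adjusted p under 0.05 became 1498 and 719 with DESeq2, 95 and 425 with total counts, 164 and 52 with length offsets, 766 and 223 with limma voom, 1658 and 1695 with control replicate 3 alone, and from 39 to 1484 and from 3 to 1106 on leaving out single libraries. Replicate numbers were not seen to pair all samples: same-numbered deviations correlated at 0.123, 0.142 and −0.068 across genes, and not every sample correlated best with its own number. Other pairs ran from −0.227 to 0.112. With 3 libraries per genotype this check cannot exclude a pairing.

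With total counts the log2 fold changes of NaCP60E, tipE, Teh2, Sh, Hk, eag, slo, SLO2, SK, KCNQ, Irk3, sand, cac, na and ClC-c turned negative, at −1.16, −1.49, −1.36, −0.46, −0.06, −1.05, −0.71, −0.92, −0.04, −1.02, −0.69, −1.15, −1.05, −1.20 and −1.47. With control replicate 3 alone, those of NaCP60E, tipE, Teh2, eag, KCNQ, cac, na and ClC-c were −0.67, −1.46, −0.06, −0.13, −0.08, −0.10, −0.58 and −0.49, and those of Teh4 and sei 0.55 and 0.18. With length offsets NaCP60E, Teh1, Teh4 and sei were at −0.05, 0.13, 0.51 and 0.57. For sei the value was 0.07 with RLE factors, 0.08 with DESeq2 and 0.07 with its prior. With limma voom tipE was at −0.23, and with no filter sand was at −0.06. Leaving out single libraries gave ranges from −0.21 to 0.93 for NaCP60E, −0.40 to 0.26 for Teh1, −0.06 to 0.35 for Teh2, −0.77 to 0.32 for Teh4, −0.18 to 0.14 for sei, −0.15 to 0.35 for sand and −0.32 to 0.89 for na.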
